A study of Mus musculus with 39 samples.

Results

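Fatty acid oxidation genes and the genes switched on by the fatty acid sensing receptors PPARα and PPARδ were followed in 3 tissues of mice with letrozole-induced polycystic ovary syndrome (PCOS), with and without roxadustat: the liver, a skeletal muscle and white fat (WAT). A total of 36 genes were taken by gene name from the deposited expression tables, of 30671 genes listed in all. All 36 were listed in liver, among 24504 genes, and in WAT, among 27186 genes, while 35 were listed in muscle, among 24476 genes, where Fgf21 was not listed. The mice were of the C57Bl6/J background. Control mice received vehicle. PCOS mice had been given letrozole, an aromatase inhibitor, before puberty, and received by mouth either vehicle or roxadustat, a drug that stabilises hypoxia-inducible factor by blocking its prolyl hydroxylases. Treatment began at an age of 12 weeks and lasted 6 weeks, after which the tissues were taken. Liver and muscle had 4 mice in each of the 3 arms, and WAT had 4 control, 6 PCOS vehicle and 5 PCOS roxadustat mice, giving 39 libraries from 18 mice, 9 of which gave all 3 tissues. The labels name neither the muscle nor the fat depot and do not say what control mice received before puberty.

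Mitochondrial β-oxidation shortens fatty acids step by step to acetyl-CoA. Acyl-CoA synthetases activate the acid, and the carnitine shuttle carries it through the mitochondrial membranes. Dehydrogenases, hydratases and thiolases then remove an acetyl unit per turn. The acyl-CoA dehydrogenases among them hand electrons to the electron transfer flavoprotein. Peroxisomes run a related pathway for very long acids. PPARα, best known in liver during fasting, and PPARδ, prominent in muscle, bind fatty acids and pair with retinoid X receptors on direct repeats of the half-site AGGTCA, where they raise transcription of most enzymes named here and of Pdk4, Ucp3, Plin5 and Fgf21.

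Levels are FPKM values, which the authors scaled for gene length and library size, so genes of unequal length can be compared. Library depth recovered from the tables ranged from 12389970 to 19639237 reads. Tissue identity was checked with marker sums in control mice. Hepatocyte markers summed to 91157 ± 7887 FPKM in liver (SD, n = 4) against 7.68 in muscle and 16.7 in WAT, muscle fibre markers to 85697 ± 9223 FPKM in muscle, and adipocyte markers to 24371 ± 4064 FPKM in WAT. The number of genes with 1 to 3 reads ranged from 313 to 3822 between libraries, and Ppara, with 25 to 335 reads in the other WAT libraries, was listed at 0 in WAT of the PCOS vehicle mouse 785, so very low values in such libraries may be missing rather than measured.

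Several members share sequence with other genes, which limits what their values stand for. In GENCODE mouse transcripts, over 10% of all 100-base stretches recurred in another gene for 7 of the 36. Cpt1b shared 75.6% with Gm44502, an annotated gene that spans its whole locus, Etfb 35.8% with Gm45233, Acaa1b 19.3% with Acaa1a, Acot2 17.1% with Acot1, Hadhb 14.8% with Gm13910, Slc22a5 12.9% with Slc22a21 and Acot1 9.32% with Acot2. In the annotation of the tables, 8 members overlapped another protein-coding gene. The sources used here do not say whether reads were counted by strand, so reads from the overlapping bases cannot be assigned with certainty. The overlap ranged from 59 of 15343 bases for Crat to the whole span of Acaa1a and Cpt1b.

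The promoters of 4 members whose values recur below are shown to set them beside the PPAR half-site. They are the 250 bases before the RefSeq transcription start (build GRCm38.p6), 5′ to 3′ on the gene's strand, with half-sites (AGGTCA, or TGACCT where it lies on the opposite strand) in capitals. Pdk4 encodes the kinase that shuts pyruvate dehydrogenase, Ucp3 a mitochondrial carrier, Plin5 a coat protein that ties lipid droplets to mitochondria, and Cpt1a the liver form of the carnitine palmitoyltransferase that commits fatty acids to the mitochondrion.
Pdk4, chr6:5496279-5496528, minus strand: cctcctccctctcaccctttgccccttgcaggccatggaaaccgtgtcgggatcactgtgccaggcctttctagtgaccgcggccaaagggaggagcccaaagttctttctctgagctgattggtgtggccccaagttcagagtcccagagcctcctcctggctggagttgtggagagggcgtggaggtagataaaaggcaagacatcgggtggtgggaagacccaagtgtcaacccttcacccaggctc
Ucp3, chr7:100472741-100472990, plus strand: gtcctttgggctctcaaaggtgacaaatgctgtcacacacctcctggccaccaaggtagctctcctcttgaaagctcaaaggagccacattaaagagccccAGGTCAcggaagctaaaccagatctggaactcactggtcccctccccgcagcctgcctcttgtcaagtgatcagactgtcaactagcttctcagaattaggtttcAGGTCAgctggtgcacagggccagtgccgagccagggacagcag
Plin5, chr17:56117549-56117798, minus strand: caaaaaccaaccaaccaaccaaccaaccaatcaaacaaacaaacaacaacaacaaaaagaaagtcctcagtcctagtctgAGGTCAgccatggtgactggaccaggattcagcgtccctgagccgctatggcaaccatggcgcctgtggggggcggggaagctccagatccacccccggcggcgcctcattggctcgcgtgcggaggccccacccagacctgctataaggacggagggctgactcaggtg
Cpt1a, chr19:3323051-3323300, plus strand: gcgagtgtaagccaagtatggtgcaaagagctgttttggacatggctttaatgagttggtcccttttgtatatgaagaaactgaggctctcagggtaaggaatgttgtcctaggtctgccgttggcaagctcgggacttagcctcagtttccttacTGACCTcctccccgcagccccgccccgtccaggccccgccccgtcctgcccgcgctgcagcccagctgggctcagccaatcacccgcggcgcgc

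Ucp3 held the half-site 149 and 44 bases before its start, Plin5 170 bases before one of its starts and Cpt1a 94 bases before, while the Pdk4 window held none. RefSeq windows were matched for 31 of the 36 members, 33 windows in all. The half-site was in 5 of these 33 (15.2%), those of Cpt1a, Acadm, Acadvl, Ucp3 and Plin5, and in 14.02% of the 32851 windows of the whole table, so its presence in these short windows did not set the members apart. The direct repeat with 1 base between both half-sites was in 0 member windows and in 11 windows of the table (0.0335%). A match is a match of letters, and PPAR sites farther from the start are not covered by these windows.

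**Figure D1:**
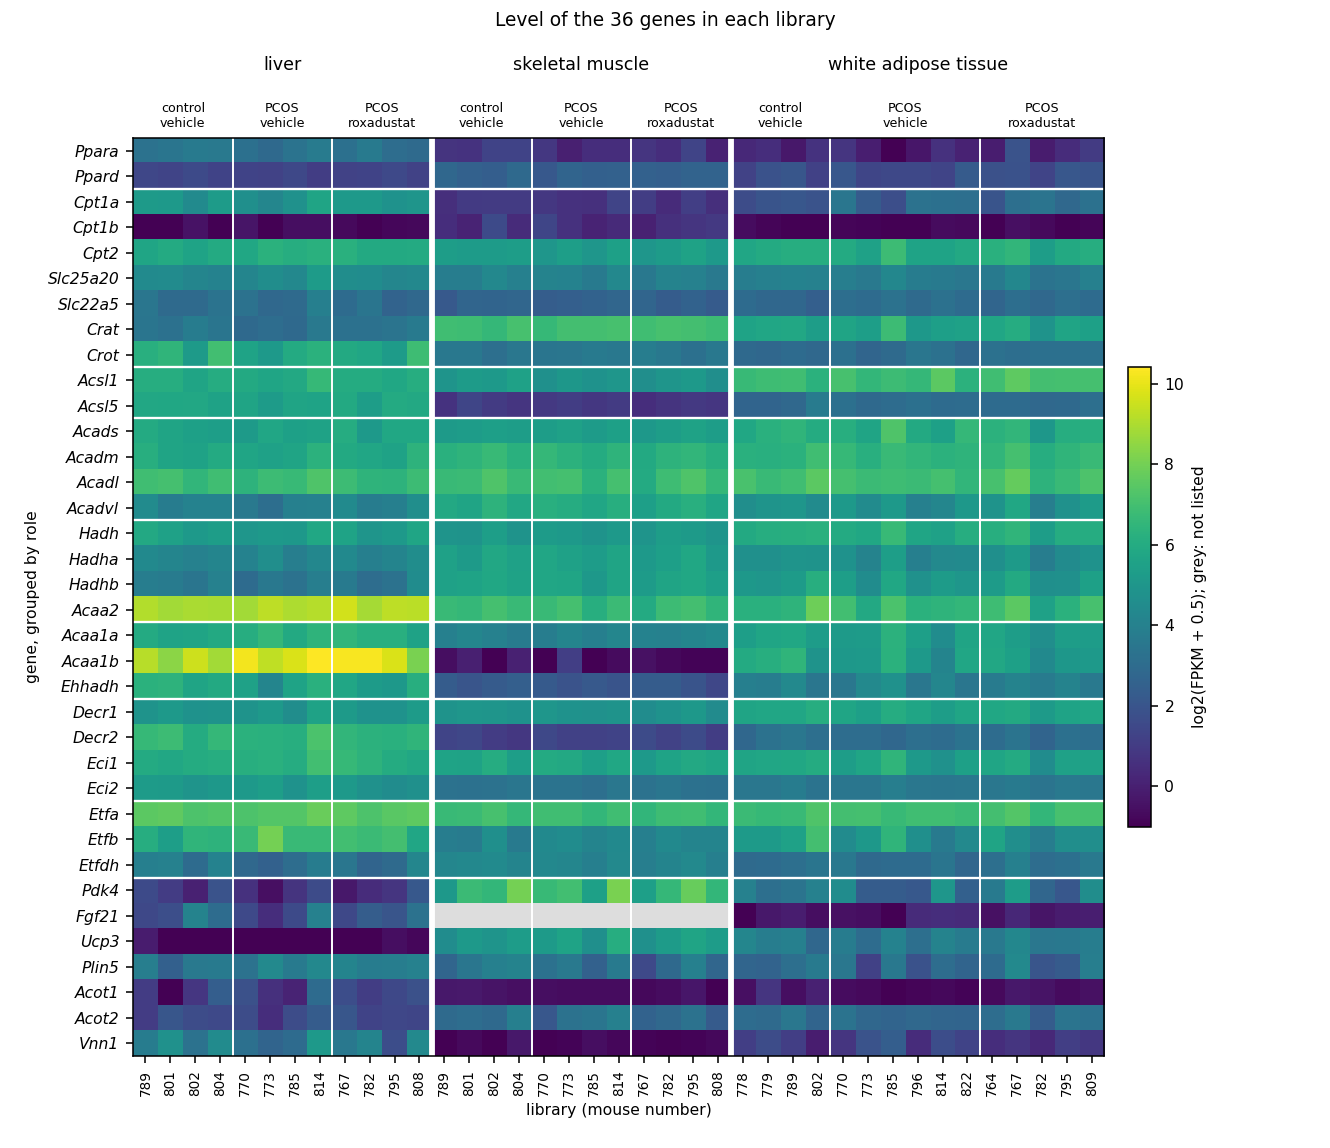
Level of each of the 36 genes (rows, grouped by role) in each of the 39 libraries (columns, grouped by tissue and arm, named by mouse), as log2(FPKM + 0.5), grey where a gene is not listed. The colour changes between tissues far more than between arms of a tissue, with Acaa2 and Acaa1b brightest in liver, Crat and Pdk4 in muscle and Acsl1 in WAT.

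The tissues differed in which members they expressed. Of the 36 members, 28 were at 10 FPKM or more in control liver, 22 in control muscle and 22 in control WAT, while 2, 3 and 4 were under 1 FPKM. By FPKM as deposited, the highest mean level was in liver for 18 members, in muscle for 11 and in WAT for 7. Tests used log2(FPKM + 0.5) in limma, with p-values adjusted over all genes tested and a call at an adjusted p under 0.05. Between liver and muscle of control mice, 28 of 35 members were called, 17 higher in liver and 11 lower, against 71.3% of all genes. Between liver and WAT, 25 of 35 were called, 13 higher in liver and 12 lower, against 57.0% of all genes. Between muscle and WAT, 23 of 35 were called, 10 higher in muscle and 13 lower, against 68.9% of all genes. Calls between tissues were common among all genes, so what follows concerns which member was high where. The RNA kit differed between WAT and the other tissues, so kit and tissue cannot be told apart in comparisons with WAT. Scaling also matters for levels set against WAT. When FPKM were rescaled to each library's read total, the median of all genes moved from -0.02 to -0.49 in liver against WAT and from -0.07 to -0.59 in muscle against WAT on the log2 scale. Eci1, among the members highest in liver, moved there from 0.17 to -0.45 against WAT. The counts of members highest in each tissue hold for deposited FPKM only and were not repeated after rescaling.

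Of the receptors, Ppara was a liver gene and Ppard, at lower levels, was highest in muscle. Ppara stood at 9.35, 10.3, 12.5 and 11.8 FPKM in control liver, at 1.14, 1.10, 1.96 and 1.95 FPKM in control muscle and at 0.724, 0.889, 0.332 and 1.11 FPKM in control WAT. The liver values lay clear of all others, 2.52 above muscle on the log2 scale (SE 0.197, adjusted p = 4.7e-07) and 3.22 above WAT (SE 0.227, adjusted p = 3.9e-07). Muscle and WAT levels of Ppara overlapped, with a called difference of 0.70 (SE 0.234, adjusted p = 0.0204) that was lost under at least 1 alternative setting. Ppard averaged 5.89 ± 0.992 FPKM in muscle, 2.14 ± 0.231 in liver and 2.63 ± 0.956 in WAT (SD, n = 4). Muscle was called above both for Ppard, the call against WAT being lost under at least 1 alternative setting, and the difference between liver and WAT did not pass (adjusted p = 0.494).

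Genes of the carnitine shuttle differed in the tissue where they were highest. Cpt1a averaged 32.9 ± 7.78 FPKM in liver, 3.26 ± 0.492 in WAT and 1.34 ± 0.263 in muscle (SD, n = 4), with all 3 pairs of tissues called. Its level in liver was 24.5-fold that in muscle (log2 difference 4.16, SE 0.207, adjusted p = 9.0e-09). Cpt1b, the muscle form, was at 0.898, 0.597, 2.46 and 0.808 FPKM in muscle and was listed at 0 in 3 of 4 control livers and 2 of 4 control WAT samples. Its mean in control muscle, 1.19 ± 0.857 FPKM, was not above the 1.34 ± 0.263 FPKM of Cpt1a there. The level of Cpt1b cannot be told apart from that of Gm44502 over most of its sequence. Gm44502 spans Cpt1b on the same strand and had no value in muscle. How reads shared by both genes were counted is not known. The level of Cpt1b in muscle therefore cannot be ranked against that of Cpt1a. Crat, which moves acetyl groups to carnitine, averaged 117 ± 16.6 FPKM in muscle, 50.04 ± 7.23 in WAT and 10.8 ± 1.83 in liver, and its liver to muscle difference of -3.39 (SE 0.162) was the reverse of that of Cpt1a. Crot, the peroxisomal octanoyl transferase, averaged 80.5 ± 36.6 FPKM in liver, 10.5 ± 1.40 in muscle and 6.91 ± 0.347 in WAT. Cpt2, Slc25a20 and Slc22a5, the inner membrane transferase, the carrier of the shuttle and the carnitine importer, spanned far less, with means of 39.3 to 62.8, 15.1 to 19.3 and 5.56 to 8.66 FPKM over the 3 tissues.

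The acyl-CoA synthetases divided between tissues. Acsl1 was highest in WAT, at 103 ± 18.5 FPKM against 62.8 ± 8.97 in liver and 36.8 ± 7.16 in muscle (SD, n = 4), and all 3 pairs were called. Acsl5 was highest in liver, at 53.8 ± 4.89 FPKM against 7.85 ± 3.43 in WAT and 1.47 ± 0.468 in muscle. Its liver level was 36.7-fold that of muscle.

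The enzymes of the mitochondrial spiral all averaged above 10 FPKM in the 3 tissues of control mice. Acadl, the long-chain acyl-CoA dehydrogenase, averaged 115 ± 16.8 FPKM in liver, 119 ± 22.6 in muscle and 137 ± 34.7 in WAT, and no pair of tissues passed for it (adjusted p of 0.382 to 0.842). Acadvl, for very long chains, averaged 61.4 ± 14.5 FPKM in muscle against 26.7 ± 4.33 in WAT and 16.8 ± 3.56 in liver. Hadha and Hadhb, the subunits of the trifunctional protein, averaged 46.2 ± 8.28 and 49.2 ± 3.70 FPKM in muscle, 27.4 ± 1.97 and 43.4 ± 18.7 in WAT and 18.1 ± 2.06 and 13.1 ± 2.26 in liver. The 2 subunits were therefore both lowest in liver. Acads and Hadh, for short chains, were highest in WAT, at 70.2 ± 13.5 and 68.6 ± 6.53 FPKM. Acaa2, the mitochondrial thiolase that ends the spiral, averaged 493 ± 38.9 FPKM in liver, 4.49-fold the 110 ± 15.6 of muscle, and 118 ± 80.02 in WAT. Its WAT mean rested on mouse 802, at 238 FPKM against 74.1 to 83.7 in the other 3 mice.

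Among peroxisomal enzymes, Acaa1b, Ehhadh and Decr2 were highest in liver and called against both other tissues. Acaa1b, a peroxisomal thiolase, stood at 586, 348, 739 and 450 FPKM in control liver, at 61.7, 70.7, 86.6 and 28.8 in WAT and at no more than 0.540 in muscle. Its close copy Acaa1a averaged 54.9 ± 7.31 FPKM in liver, 46.9 ± 7.40 in WAT and 15.5 ± 2.09 in muscle, and its difference between liver and WAT did not pass (adjusted p = 0.277). Ehhadh, the peroxisomal bifunctional enzyme, averaged 67.5 ± 14.2, 14.9 ± 4.11 and 4.31 ± 0.598 FPKM in the same order. Among the enzymes for unsaturated acids, peroxisomal Decr2 followed the same order at 93.6 ± 20.1, 8.87 ± 1.91 and 1.75 ± 0.392 FPKM, whereas mitochondrial Decr1 was highest in WAT at 56.2 ± 8.91 FPKM against 30.2 ± 3.90 in liver and 29.3 ± 1.71 in muscle. Eci2 was highest in liver at 34.3 ± 3.83 FPKM, while Eci1 averaged 50.7 to 62.9 FPKM over the tissues with no pair called. Of the electron carriers, Etfa averaged 172 ± 23.4 FPKM in liver, 117 ± 23.2 in WAT and 112 ± 17.7 in muscle, and Etfdh was highest in muscle at 19.1 ± 1.81 FPKM.

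The PPAR-induced regulators differed in how far they were bound to 1 tissue. Pdk4 stood at 33.6, 109, 94.0 and 263 FPKM in control muscle, at 15.5, 8.38, 9.99 and 15.8 in WAT and at 2.44, 1.52, 0.530 and 3.26 in liver. The groups did not overlap, and muscle averaged 64.3-fold the liver level (log2 difference -5.48 for liver against muscle, SE 0.554, adjusted p = 4.2e-06). Ucp3 averaged 31.9 ± 7.13 FPKM in muscle and 13.3 ± 4.92 in WAT and was listed at 0 in 3 of 4 control livers. Vnn1, the pantetheinase, averaged 17.8 ± 7.86 FPKM in liver against 1.60 ± 0.897 in WAT and 0.113 ± 0.162 in muscle. Fgf21, the fasting hormone, stood at 2.25, 2.80, 16.5 and 7.71 FPKM in control liver and at 0.231 ± 0.189 FPKM in WAT. Plin5 was similar in the 3 tissues, with means of 8.24 to 12.2 FPKM and no pair called. The thioesterases Acot1 and Acot2 stayed under 10 FPKM on average in each tissue.

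**Figure D2:**
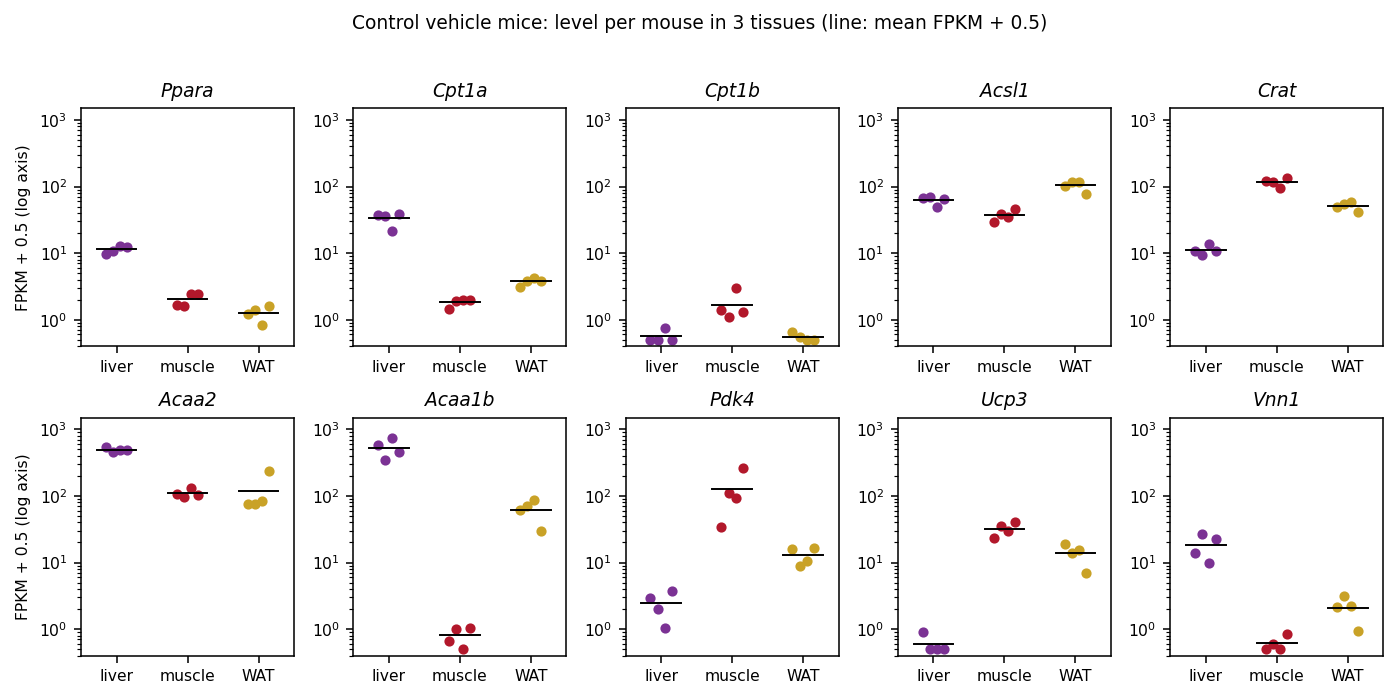
Levels of 10 members in the 3 tissues of control vehicle mice, as FPKM + 0.5 on a log axis, with 1 point per mouse and a line at the mean. Ppara, Cpt1a, Acaa2, Acaa1b and Vnn1 sit highest in liver, Cpt1b, Crat, Pdk4 and Ucp3 in muscle and Acsl1 in WAT.

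Of the 28, 25 and 23 calls, 23, 20 and 17 held under every alternative setting. Among members at their highest in 1 tissue, 11 were called against both others for liver, 8 for muscle and 4 for WAT. Among differences against WAT called before or after rescaling to read totals, 5 turned in direction. They were Eci1 and Etfa for liver, and Crot, Hadha and Slc25a20 for muscle. Turns of differences called on neither scale were not counted.

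In the liver, PCOS mice differed from controls in no member that passed the test. Of 34 members tested, 0 were called, against 0.82% of all genes. At an unadjusted p under 0.05 stood 3 members and 1573 genes (11.2% of all genes), and voom on recovered reads also called 0 members. By direction, 15 members were higher and 19 lower, with a median log2 difference of -0.04 against 0.003 for all genes tested. The lowest p-value belonged to Acaa1b, located at chr9:118977091-118986161 on the minus strand (mm39). Its values of 586, 348, 739 and 450 FPKM in control mice compared with 1194, 630, 867 and 1356 in PCOS vehicle mice, so that the groups overlapped by 1 mouse of each. The log2 difference was 0.93 (SE 0.308, adjusted p = 0.288). In the authors' deposited table its adjusted p was 0.0455 with the same log2 fold change of 0.93, and it was the only member under 0.05 there, against 1.37% of all genes.

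Etfb, the β subunit of the electron transfer flavoprotein, was the only liver member whose groups did not overlap, where 7.09% of all genes did so. It stood at 68.5, 41.6, 88.0 and 82.7 FPKM in control liver and at 105, 258, 105 and 106 FPKM in PCOS vehicle liver. Mouse 773 carried the high value of 258, and the log2 difference of 0.96 (SE 0.332) had an adjusted p of 0.30. Acaa1a stood at 62.6, 47.8, 49.6 and 59.5 against 69.1, 96.8, 59.8 and 84.6 FPKM (log2 difference 0.48, SE 0.194, adjusted p = 0.39), overlapping by little. Other members of the same pathway pointed the other way without passing, with log2 differences of -0.67 for Etfdh (SE 0.311) and -0.67 for Ehhadh (SE 0.371). Ppara was at 8.61, 6.95, 9.73 and 12.7 FPKM in PCOS vehicle liver, with 2 mice below the control range, 1 inside it and 1 just above it (log2 difference -0.22, SE 0.209). Nuclear genes of oxidative phosphorylation were higher in 33 of 40 tested, with a median of 0.31 and 0 called, and whether this bears on Etfb was not tested.

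Roxadustat moved no liver member past the test in PCOS mice. Of 34 tested, 0 were called, as were 0.0% of all genes. An unadjusted p under 0.05 was found for 0 members and 411 genes (2.93% of all genes), and voom called 0 members. Directions were 19 higher and 15 lower, with a median of 0.04 against -0.001 for all genes. No member had groups that did not overlap, against 1.64% of all genes. Acadvl had the lowest p-value, at 21.6, 13.5, 14.9 and 24.1 FPKM with roxadustat and 11.7, 8.28, 15.2 and 15.7 with vehicle (log2 difference 0.52, SE 0.255, adjusted p = 1.0). In each group 2 mice lay inside the range of the other, and controls spanned 13.4 to 21.8 FPKM. Cpt1a stood at 33.9, 34.5, 27.6 and 30.0 FPKM with roxadustat and 25.4, 18.4, 26.5 and 50.3 with vehicle (log2 difference 0.15, SE 0.270). Against controls, roxadustat-treated PCOS livers showed 17 members higher and 17 lower, 0 of 34 called (0.0% of all genes) and 0 with groups that did not overlap (4.01% of all genes). There 0 members and 1148 genes (8.11% of all genes) had an unadjusted p under 0.05, and voom called 0 members. Both comparisons with roxadustat share the roxadustat libraries, and the first shares its PCOS vehicle libraries with the comparison against controls.

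In skeletal muscle, no member passed the test between PCOS vehicle and control mice. Of 32 tested, 0 were called, against 0.104% of all genes, and 0 had groups that did not overlap, against 3.78%. At an unadjusted p under 0.05 stood 1 member and 849 genes (6.32% of all genes), and voom called 0 members. Directions were 14 higher and 18 lower, with a median of -0.002 against -0.007 for all genes. The lowest p-value was that of Ppara, at 1.33, 0.517, 0.910 and 0.908 FPKM in PCOS vehicle muscle (log2 difference -0.53, SE 0.212, adjusted p = 0.724). Only mouse 770 reached the control range of 1.10 to 1.96 FPKM, and these values rest on 21 to 105 reads. Acsl1 stood at 25.8, 32.2, 27.7 and 30.9 FPKM against 29.0, 38.4, 34.0 and 45.9 in controls (log2 difference -0.32, SE 0.145, adjusted p = 0.785). Ucp3 stood at 36.4, 48.0, 25.5 and 69.1 against 23.0, 35.1, 29.7 and 39.6 FPKM (log2 difference 0.42, SE 0.276), and Pdk4 at 104, 125, 44.0 and 279 against 33.6, 109, 94.0 and 263 FPKM (log2 difference 0.20, SE 0.626). Both genes varied more between mice of a group than between groups. Acot1 was under the read filter here and was not tested. It was listed at 0.193 to 0.348 FPKM in controls and at 0.145 to 0.163 in PCOS vehicle muscle, without overlap, and in the authors' deposited table its log2 fold change was -0.86 with an adjusted p of 0.999.

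Roxadustat likewise moved no muscle member past the test. Of 32 tested, 0 were called, as were 0.0% of all genes, and 0 had groups that did not overlap, against 1.61%. Before adjustment 0 members and 320 genes (2.41% of all genes) had a p under 0.05, and voom called 0 members. By direction 7 members were higher and 25 lower, with a median of -0.08 against -0.0004 for all genes, and the members share 1 set of libraries. Plin5 stood at 2.32, 6.87, 15.2 and 6.36 FPKM with roxadustat against 8.93, 11.8, 5.27 and 12.1 with vehicle (log2 difference -0.48, SE 0.447) and the groups overlapped. Against controls, 8 were higher and 25 lower of 33 tested, with 0 called (0.349% of all genes) and 0 with groups that did not overlap (6.24% of all genes). There 0 members and 1527 genes (11.3% of all genes) had an unadjusted p under 0.05, and voom called 0 members. Markers of slow and oxidative fibres also differed between libraries. All 9 were lower with roxadustat than with PCOS vehicle (median -1.35, 0 called), and their summed level was 337 ± 211 FPKM in controls, 193 ± 160 in PCOS vehicle and 140 ± 159 in roxadustat muscle, with ranges of 193 to 650, 41.0 to 401 and 19.0 to 373. Adipocyte markers in muscle summed to 640 to 1461 FPKM in controls and 535 to 572 in roxadustat muscle, which did not overlap, and 9 of 9 tested were lower (median -1.35, 0 called). In PCOS vehicle muscle these markers summed to 420 to 1031 FPKM, which overlapped both other arms. The part of either marker list in the members' values was not tested. In bulk tissue, fewer cells or fibres of a type and less RNA per cell cannot be told apart.

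In WAT, Cpt1a was the member that stood out. It lies at chr19:3372334-3435733 on the plus strand (mm39). Its level was 2.60, 3.36, 3.79 and 3.30 FPKM in control mice. In PCOS vehicle mice it was 10.5, 4.36, 2.85, 9.30, 8.63 and 8.35 FPKM, and in PCOS roxadustat mice 3.34, 8.41, 9.96, 6.63 and 9.18 FPKM. Thus 5 of 6 PCOS vehicle mice and 4 of 5 roxadustat mice lay above every control, and the exceptions were mouse 785 and mouse 764. Cpt1a rose in roxadustat-treated PCOS mice relative to controls, by 1.02 on the log2 scale (SE 0.267, adjusted p = 0.0495), with means of 7.51 ± 2.63 and 3.26 ± 0.492 FPKM (SD, n = 5 and 4). It was the only 1 of 34 members called there, against 5.79% of all genes, and the call was lost on leaving out any of 8 of the 9 mice, with adjusted p of 0.0686 to 0.119, while the log2 difference stayed between 0.90 and 1.08. Between PCOS vehicle and control the log2 difference was 0.95 (SE 0.315, adjusted p = 0.259). Without mouse 785 it was 1.17 with an adjusted p of 0.0291, and in the authors' deposited table the log2 fold change was 1.13 with an adjusted p of 0.0279. No difference between roxadustat and vehicle passed for Cpt1a (log2 difference 0.07, SE 0.339, adjusted p = 1.0).

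Over all members, PCOS vehicle WAT had 0 of 34 called against 0.346% of all genes. At an unadjusted p under 0.05 stood 2 members and 1883 genes (12.1% of all genes), and voom called 0 members. Directions were 13 higher and 21 lower, with a median of -0.09 against 0.002 for all genes. Acot1, a cytosolic acyl-CoA thioesterase, was the only member whose groups did not overlap, where 3.15% of all genes did so. It stood at 0.187, 1.17, 0.169 and 0.544 FPKM in controls and at 0 to 0.151 FPKM in PCOS vehicle mice, from 13 to 102 against 0 to 14 reads (log2 difference -0.71, SE 0.230, adjusted p = 0.246). The nearest values were 0.169 and 0.151 FPKM, and the ranges of reads overlapped. The 0 was that of mouse 785, whose very low values may be missing rather than measured. In the authors' deposited table its log2 fold change was -2.73 with an adjusted p of 0.0254. The difference on the log2(FPKM + 0.5) scale is smaller because the level is low. Acot1 and Cpt1a were the 2 members under 0.05 in that table, against 1.63% of all genes.

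The other WAT members with low p-values were a transporter and an electron carrier. Slc22a5 averaged 8.11 ± 0.899 FPKM in PCOS vehicle against 6.35 ± 1.02 in control WAT (log2 difference 0.34, SE 0.160, adjusted p = 0.433). Etfb stood at 36.5, 36.6, 45.1 and 125 FPKM in controls and at 12.6 to 87.2 in PCOS vehicle mice (log2 difference -0.93, SE 0.480, adjusted p = 0.472). The high values were those of mouse 802 in controls and mouse 785 in PCOS. Several other contents of WAT differed between these groups. Brown adipocyte markers were lower in 7 of 8 (median -1.59, 0 called), with a summed level of 166 to 1499 FPKM in controls and 23.5 to 480 in PCOS vehicle, the highest of each being mice 802 and 785. Mesothelial markers were lower in 7 of 7, at 26.9 to 56.1 against 3.79 to 12.8 FPKM, macrophage markers higher in 10 of 10, at 160 to 258 against 259 to 485 FPKM, and nuclear oxidative phosphorylation genes lower in 40 of 40 (median -0.58, 0 called). Adipocyte markers summed to 20047 to 27980 and 12666 to 47987 FPKM. Reads from the mitochondrial genome made up 18.02% ± 4.62 in control, 9.85% ± 2.68 in PCOS vehicle and 9.42% ± 2.86 in roxadustat WAT. Over the 15 mice, after centring on the arm, the correlation of Cpt1a with the brown adipocyte sum did not pass (Pearson r = -0.34, permutation p = 0.264, Spearman rho = -0.36, permutation p = 0.225, r = -0.18 without the 2 farthest mice), and its relation to the other contents, macrophage markers among them, was not tested.

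Roxadustat against vehicle in PCOS WAT gave 0 of 35 members called, as 0.0% of all genes, and 0 with groups that did not overlap, against 0.0979%. Before adjustment 2 members and 266 genes (1.74% of all genes) had a p under 0.05, and voom called 0 members. Directions were 21 higher and 14 lower, with a median of 0.09 against 0.02 for all genes. Acot1 stood at 0.109, 0.342, 0.255, 0.122 and 0.215 FPKM with roxadustat, from 10 to 36 reads, overlapping both the vehicle and the control values (log2 difference 0.29, SE 0.114, adjusted p = 1.0). Vnn1 was the other, at 1.17 ± 0.362 FPKM with roxadustat and 2.47 ± 1.48 with vehicle (log2 difference -0.70, SE 0.322, adjusted p = 1.0). Neither difference passed after adjustment.

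Against controls, roxadustat-treated WAT had 16 members higher and 18 lower, with Cpt1a the single call. An unadjusted p under 0.05 was reached by 4 of 34 members and by 4131 genes (26.7% of all genes). Groups did not overlap for Crot and Acsl1, both higher, where 12.3% of all genes had groups that did not overlap. Crot stood at 6.90, 6.61, 7.40 and 6.72 FPKM in controls and at 8.90, 8.09, 8.82, 8.81 and 9.04 with roxadustat (log2 difference 0.32, SE 0.104, adjusted p = 0.0874). Acsl1 stood at 101, 116, 118 and 78.1 FPKM in controls and at 120, 188, 128, 131 and 131 with roxadustat (log2 difference 0.43, SE 0.187, adjusted p = 0.17). Neither passed the test. Crot was called when values were rescaled to read totals (0.43, adjusted p = 0.0432) and with voom (0.45, adjusted p = 0.0465), each of which called 2 members. Etfb stood at 50.4, 24.7, 13.6, 24.6 and 24.3 FPKM with roxadustat (log2 difference -1.04 against control, SE 0.409, adjusted p = 0.134). Rescaling to read totals moved the median of all genes in this comparison from 0.02 to 0.11.

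**Figure D3:**
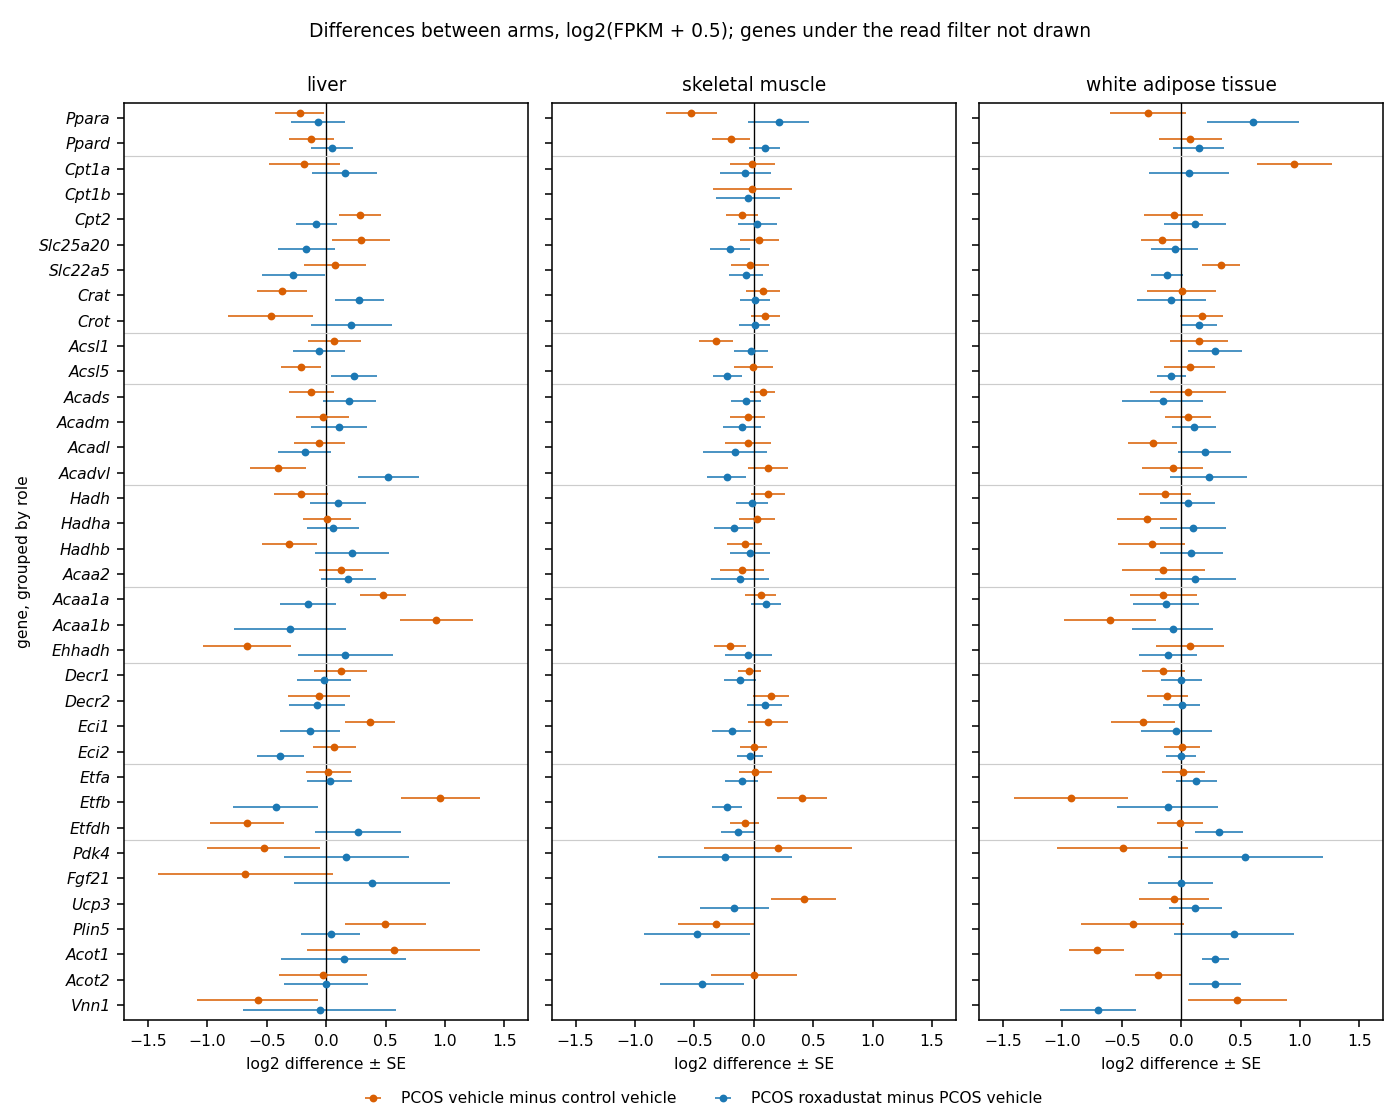
Log2 difference ± SE of each tested member for PCOS vehicle minus control vehicle (orange) and PCOS roxadustat minus PCOS vehicle (blue) in liver, skeletal muscle and WAT, with genes grouped by role. The 3 members farthest to the right for PCOS are Etfb (0.96) and Acaa1b (0.93) in liver and Cpt1a (0.95) in WAT, and none of these differences passed the test.

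**Figure D4:**
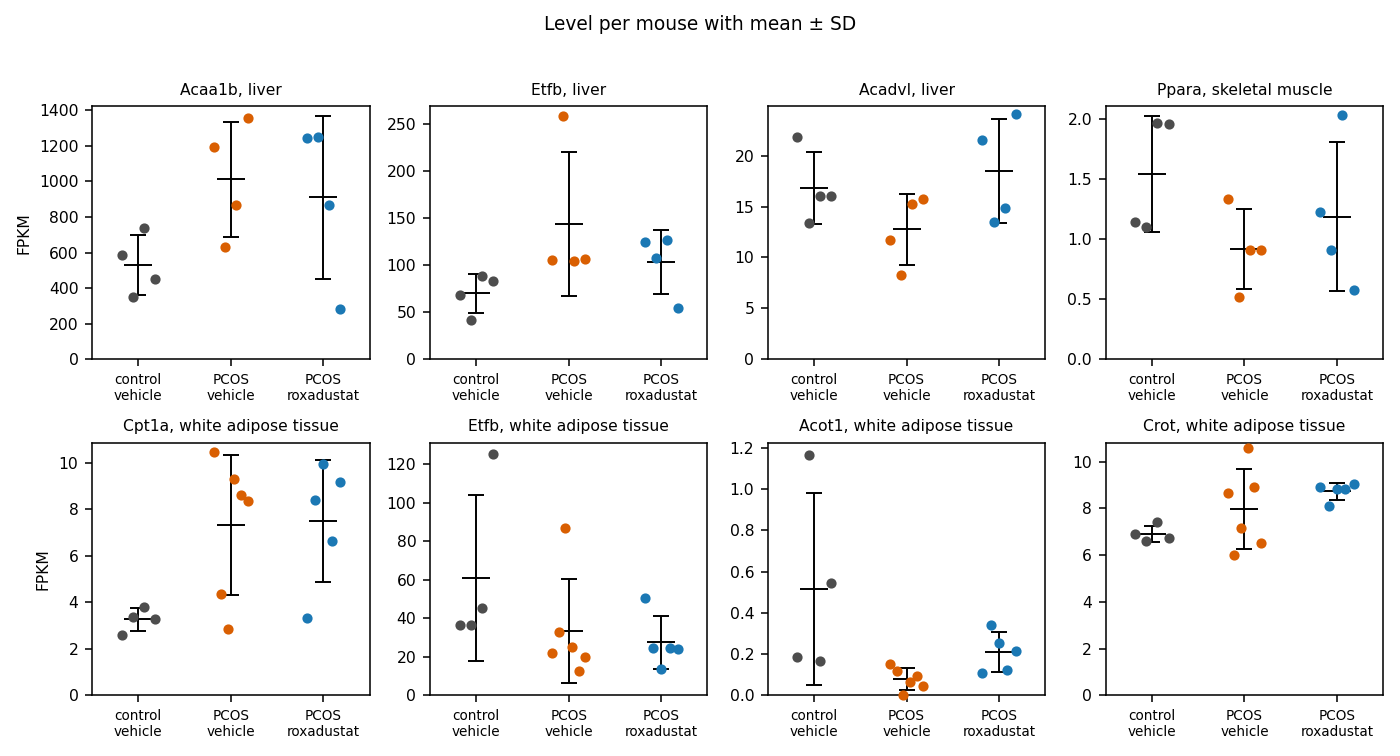
Levels in FPKM of 8 gene and tissue pairs by arm, with 1 point per mouse and the mean ± SD. In WAT, 5 of 6 PCOS vehicle mice and 4 of 5 roxadustat mice lie above every control for Cpt1a, and in liver the Etfb groups of control and PCOS vehicle do not overlap.

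Whether a difference between arms was larger in one tissue than in another was tested directly. For PCOS vehicle against control, 0 members passed for liver minus muscle, liver minus WAT or muscle minus WAT, against 0.467%, 0.761% and 0.149% of all genes. At an unadjusted p under 0.05 stood 0, 3 and 2 members, and 1073, 2341 and 1577 genes (7.16%, 14.4% and 9.77% of all genes). Etfb gave the lowest p-value, its PCOS difference being 1.89 higher in liver than in WAT on the log2 scale (SE 0.660, adjusted p = 0.198), and this was called without mouse 785 (2.33, adjusted p = 0.0455). Acaa1b followed with 1.53 (SE 0.548, adjusted p = 0.208). For Cpt1a, the PCOS difference was 1.13 lower in liver than in WAT (-1.13, SE 0.465, adjusted p = 0.261) and 0.96 lower in muscle than in WAT (-0.96, SE 0.412, adjusted p = 0.442). The higher level of Cpt1a in WAT is therefore not shown to be particular to WAT. For roxadustat against PCOS vehicle, 0 members passed in the 3 pairs of tissues, as 0.0%, 0.0% and 0.0% of all genes. An unadjusted p under 0.05 was found for 1, 0 and 0 members. It was found for 403, 337 and 219 genes (2.67%, 2.04% and 1.36% of all genes). The member was Acadvl, whose roxadustat difference was 0.75 higher in liver than in muscle (SE 0.317, adjusted p = 1.0).

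Within arms, some PPAR-induced genes varied together from mouse to mouse. Each of Fgf21, Ucp3, Plin5, Acot1, Acot2 and Vnn1 was correlated with Pdk4 in each tissue where it was listed, 17 relations, on log2(FPKM + 0.5) after centring on the arm mean, with permutations within arms. In muscle, Ucp3 followed Pdk4 over the 12 mice (Pearson r = 0.94, permutation p = 0.00017, adjusted p = 0.0029; Spearman rho = 0.94, permutation p = 0.00020, adjusted p = 0.0034), and r was 0.97 without the 2 mice farthest from the median. Plin5 also followed Pdk4 in muscle by Pearson r (0.88, permutation p = 0.00051, adjusted p = 0.0043, 0.87 without 2 mice), while its rho of 0.77 had an adjusted p of 0.0827. In WAT the same pair gave r = 0.72 (permutation p = 0.0158, adjusted p = 0.0894) and rho = 0.725 (adjusted p = 0.0827) over 15 mice, 0.67 without 2 mice. None of the other 14 relations passed, among them Ucp3 with Pdk4 in WAT (r = 0.44, adjusted p = 0.326). The mice that set the muscle relation came from each arm, with Pdk4 and Ucp3 high together in mouse 804, a control, mouse 814, PCOS vehicle, and mouse 795, roxadustat, and low together in mice 789, 785 and 767. Both values of a mouse come from 1 library and share its scaling.

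The members were also set against summed markers of slow fibres in muscle and of brown adipocytes in WAT. Over the 12 muscle libraries, centred on the arm, 24 of 32 members correlated positively with the summed slow-fibre markers, with a median r of 0.55, whereas 44.2% of all 13438 genes did so with a median of -0.07. An r over 0.7 was reached by 12 members (37.5%) and by 2.83% of all genes. Over the 15 WAT libraries, 29 of 34 members correlated positively with the brown adipocyte markers, with a median r of 0.48 against -0.04 for all genes, of which 45.7% were positive. There 7 members (20.6%) and 0.583% of all genes exceeded 0.7. Of these 66 relations, both Pearson and Spearman tests passed for 4 members in muscle and 6 in WAT.

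In muscle these were Eci1 (r = 0.88, permutation p = 0.0012, adjusted p = 0.014; rho = 0.88, permutation p = 0.00093, adjusted p = 0.0135), Acaa2 (r = 0.89, adjusted p = 0.0182; rho = 0.81, adjusted p = 0.0469), Cpt1b (r = 0.71, adjusted p = 0.0379; rho = 0.87, adjusted p = 0.0207) and, with the opposite sign, Crot (r = -0.88, adjusted p = 0.014; rho = -0.86, adjusted p = 0.0174). Without the 2 farthest mice, r was 0.83, 0.79, 0.74 and -0.75. In WAT, Hadhb gave r = 0.90 (permutation p = 0.00019, adjusted p = 0.0099) and rho = 0.89 (adjusted p = 0.0135), with r = 0.90 without 2 mice. Acaa2, Plin5, Acadl, Hadha and Cpt2 gave r of 0.85, 0.83, 0.80, 0.79 and 0.71, and 0.84, 0.78, 0.81, 0.67 and 0.60 without 2 mice. Acaa2 was on both lists, while peroxisomal Ehhadh and Decr2 passed on neither. The brown adipocyte markers also summed to 895 ± 579 FPKM in control muscle (SD, n = 4), so they do not mark brown fat alone, and the part of tissue makeup in the values was not tested further.

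**Figure D5:**
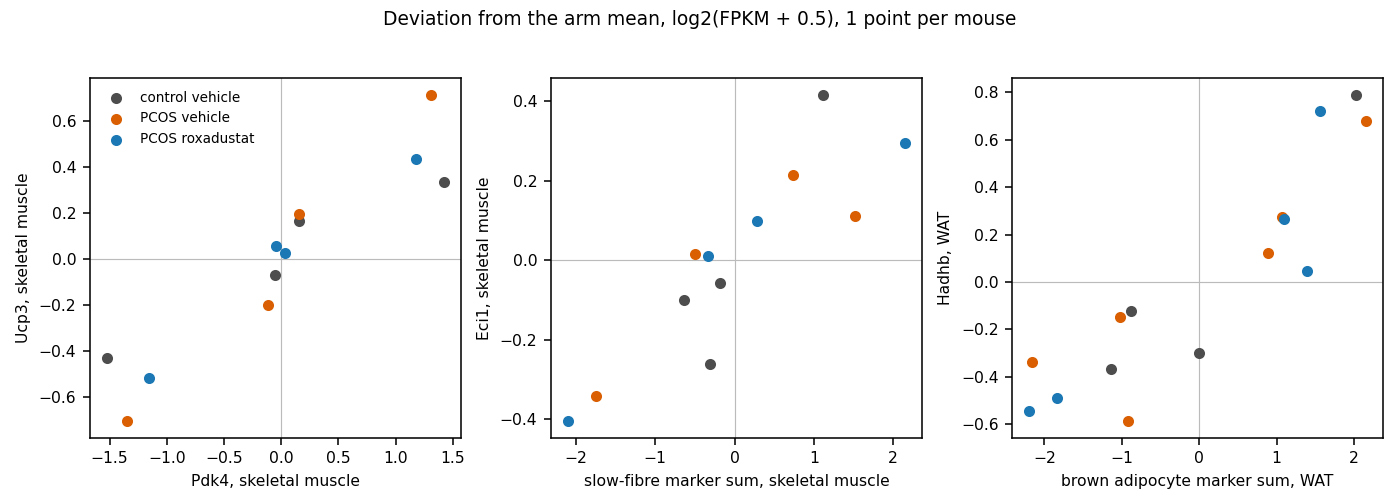
Deviation of each mouse from its arm mean on log2(FPKM + 0.5), 1 point per mouse, for Ucp3 against Pdk4 in muscle, Eci1 against the summed slow-fibre markers in muscle and Hadhb against the summed brown adipocyte markers in WAT. Points of all 3 arms run along 1 rising band in each panel, with Pearson r of 0.94, 0.88 and 0.90.

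The rest of the pathway was followed with 4 further lists. The partners of the PPARs, 16 genes for nuclear receptors and their cofactors, had 0 called between arms in liver and muscle. In WAT, Lpin1, a phosphatidate phosphatase and PPAR coactivator, was 1 of 16 called in roxadustat-treated PCOS mice against controls. The log2 difference was 0.78 (SE 0.162, adjusted p = 0.0272), with 16.7 ± 3.17 FPKM in controls and 28.8 ± 3.69 with roxadustat. PCOS vehicle WAT averaged 25.3 ± 6.86 FPKM for Lpin1 (log2 difference 0.56 against control, adjusted p = 0.353). Further PPAR targets, 30 genes, had 0 called in 8 of the 9 comparisons. In roxadustat-treated WAT against control, 1 of 25 tested rose and 1 fell. Ucp2, a mitochondrial carrier, rose from 11.1 ± 1.90 to 23.3 ± 8.08 FPKM (log2 difference 0.99, adjusted p = 0.0353), and Cpt1c, the brain form of the transferase, fell from 1.06 ± 0.231 to 0.450 ± 0.0751 FPKM (log2 difference -0.71, adjusted p = 0.0234). In PCOS vehicle WAT, Ucp2 averaged 23.0 ± 6.10 FPKM (log2 difference 0.99 against control, adjusted p = 0.0747). Cpt1c averaged 0.396 ± 0.142 FPKM there (log2 difference -0.81, adjusted p = 0.0747). No gene was called for roxadustat against PCOS vehicle in WAT, so these calls are not shown to follow the drug. In liver, Acot3 averaged 7.05 ± 9.28 FPKM in PCOS vehicle against 27.9 ± 10.4 in controls and did not pass (log2 difference -2.64, adjusted p = 0.164).

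Of 33 further genes listed for mitochondrial and peroxisomal oxidation, Abcd2 was the only one called, in liver and in WAT but between different arms. The list also held Acaca, an acetyl-CoA carboxylase of fatty acid synthesis rather than oxidation. In WAT, Acaca averaged 22.6 ± 12.8 FPKM in PCOS vehicle against 71.5 ± 17.2 in controls and did not pass (log2 difference -1.77, SE 0.351, adjusted p = 0.0546). Abcd2, a peroxisomal importer of very long acyl-CoA, fell by 1.85 on the log2 scale in PCOS vehicle liver (SE 0.239, adjusted p = 0.0030), where it averaged 2.94 ± 0.968 FPKM against 11.8 ± 2.52 in controls. It rose by 0.76 in roxadustat-treated WAT relative to controls (SE 0.173, adjusted p = 0.0353), with means of 78.8 ± 12.8 and 46.5 ± 8.74 FPKM. In PCOS vehicle WAT, where no gene of the list was called against controls, Abcd2 averaged 62.8 ± 15.1 FPKM. In roxadustat-treated liver its difference from controls did not pass (log2 difference -1.26, SE 0.328, adjusted p = 0.428). The ketone body genes, 9 in the list, had 0 called between arms in any tissue, with Bdh2 in liver at 7.27 ± 1.24 FPKM in PCOS vehicle against 3.43 ± 1.28 in controls (log2 difference 1.04, adjusted p = 0.168). These calls in roxadustat-treated WAT stand beside 5.79% of all genes called in that comparison.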

How the data were processed

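RNA of 3 tissues was sequenced after polyA selection. Per the submitters' processing notes, base calls came from CASAVA 1.8, reads were aligned with HISAT2 2.0.5 to mm39, and DESeq2 1.20.0 was used. The authors deposited FPKM per gene and library, with gene length in bases, and their own log2 fold changes and p-values. Whole reads were recovered from FPKM and gene length (100% of values whole within 0.001), and FPKM proved to be scaled over all libraries together. Because the tables hold FPKM, limma 3.58.1 (R 4.3.3) with a trend was fitted on log2(FPKM + 0.5), each pair of arms alone, over genes with at least 10 depth-scaled reads in a number of libraries equal to the smaller arm's size, with Benjamini-Hochberg adjustment over all genes tested. The steps were tested on simulated data. Correlations used 100000 permutations within arms.

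Mice are separate animals, and a mouse number marks the same animal in each tissue. Deviations of the same mouse in different tissues had median correlations of -0.008, 0.071 and -0.044 (12, 9 and 9 mice). The members and lists were chosen with earlier results of these data known. All 36 members may be named. In each comparison every called member and then the lowest p-values by role were described, and of the other lists called genes up to 4, otherwise up to 2. Alternatives were another pseudocount, no filter, rescaling to read totals, voom on recovered reads, 1 fit of the 3 arms, a term for libraries with few low-read genes, a mouse block and leaving out each mouse.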

Additional observations from a re-analysis of the deposited data

Results flagged for a closer look

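In 41 of 320 groups of 4 to 6 mice (12.8%), 1 mouse stood far from the others in the level of a member, by the ratio of its gap to the group's range, where chance gives about 5%. Genes of 1 library are not independent. Mouse 802 gave 6 in WAT, 5 in muscle and 4 in liver, mouse 814 gave 5 in liver, and mouse 785 gave 4 in WAT and 3 in muscle. The brown adipocyte sum was highest of the controls in WAT of mouse 802, the slow-fibre sum was highest of the controls in its muscle, and in mouse 785 these sums were the highest of PCOS vehicle WAT and the lowest of PCOS vehicle muscle. In muscle of mouse 773, whose Acaa1b value stood apart, hepatocyte markers summed to 189.9 FPKM, against 0.034 to 20.04 in the other muscle libraries. The part of these marker sums in the flags was not tested.

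Among control liver libraries, FPKM stood apart for Acsl1 at 49.4 in mouse 802 (nearest 65.6), Acsl5 at 46.5 in mouse 804 (nearest 55.4), Cpt1a at 21.3 in mouse 802 (nearest 35.3) and Cpt1b at 0.245 in mouse 802 (nearest 0). Further control liver values in FPKM were those of Etfdh at 7.41 in mouse 802 (nearest 14.6) and Ucp3 at 0.405 in mouse 789 (nearest 0). Among PCOS vehicle liver libraries, FPKM stood apart for Acadm at 81.1 in mouse 814 (nearest 51), Acsl5 at 37.2 in mouse 773 (nearest 49.2), Decr2 at 144 in mouse 814 (nearest 76.4) and Eci1 at 124 in mouse 814 (nearest 75.2). Further PCOS vehicle liver values in FPKM were those of Etfb at 258 in mouse 773 (nearest 106), Fgf21 at 15.9 in mouse 814 (nearest 2.41) and Vnn1 at 35.9 in mouse 814 (nearest 8.72). Among roxadustat liver libraries, FPKM stood apart for Acot2 at 3.66 in mouse 767 (nearest 2.17), Cpt2 at 74.7 in mouse 767 (nearest 62.3) and Ppard at 2.39 in mouse 795 (nearest 1.93).

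Among control muscle libraries, FPKM stood apart for Acadl at 153 in mouse 802 (nearest 109), Acot2 at 14.5 in mouse 804 (nearest 7.92), Cpt1a at 0.947 in mouse 789 (nearest 1.44) and Cpt1b at 2.46 in mouse 802 (nearest 0.898). Further control muscle values in FPKM were those of Crot at 8.37 in mouse 802 (nearest 10.9), Eci2 at 10.7 in mouse 804 (nearest 9.34), Etfb at 25.2 in mouse 802 (nearest 13.8) and Hadh at 41.1 in mouse 802 (nearest 29.8). Among PCOS vehicle muscle libraries, FPKM stood apart for Acaa1b at 1.68 in mouse 773 (nearest 0.13), Acadl at 76.6 in mouse 785 (nearest 124), Etfa at 92 in mouse 785 (nearest 118) and Hadhb at 33.5 in mouse 785 (nearest 50.4).

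Among control WAT libraries, FPKM stood apart for Acaa2 at 238 in mouse 802 (nearest 83.7), Acadm at 120 in mouse 802 (nearest 76.7), Acsl5 at 13 in mouse 802 (nearest 6.64) and Decr1 at 69.4 in mouse 802 (nearest 52.9). Further control WAT values in FPKM were those of Etfb at 125 in mouse 802 (nearest 45.1) and Hadhb at 71.1 in mouse 802 (nearest 37.5). Among PCOS vehicle WAT libraries, FPKM stood apart for Acot2 at 9.53 in mouse 770 (nearest 6.76), Cpt2 at 114 in mouse 785 (nearest 63.1), Crat at 112 in mouse 785 (nearest 49.4) and Eci2 at 14.2 in mouse 785 (nearest 10.9). Further PCOS vehicle WAT values in FPKM were those of Etfb at 87.2 in mouse 785 (nearest 33). Among roxadustat WAT libraries, FPKM stood apart for Acsl1 at 188 in mouse 767 (nearest 131) and Crot at 8.09 in mouse 767 (nearest 8.81).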

How the results depend on the processing

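The count of members called was 0 in every alternative for the liver and muscle comparisons between arms and for roxadustat against PCOS vehicle in WAT. For PCOS vehicle against control in WAT it ranged from 0 to 1 on leaving out each mouse, with Cpt1a (1.17, adjusted p = 0.0291) called without mouse 785. For roxadustat against control in WAT, where 1 was called, the count was 0 with a pseudocount of 1, without the filter and in 1 fit of the 3 arms, and 2 when rescaled to read totals, with voom and with the term for few low-read genes, and it ranged from 0 to 1 on leaving out each mouse. Cpt1a had adjusted p of 0.0514, 0.0964 and 0.148 in the first 3 of these. Crot was called when rescaled (0.43, adjusted p = 0.0432) and with voom (0.45, adjusted p = 0.0465), and Etfb with the low-read term (-1.31, adjusted p = 0.0465). For the liver minus WAT difference in PCOS the count ranged from 0 to 1, with Etfb (2.33) called without mouse 785. Among differences called on either scale, rescaling to read totals turned Eci1 (-0.45) and Etfa (-0.061) for liver against WAT. For muscle against WAT, it turned Crot (-0.15), Hadha (-0.0040) and Slc25a20 (-0.70). It also moved the split of all called genes, higher to lower, from 486 and 411 to 819 and 377 for roxadustat against control in WAT, from 62 and 53 to 52 and 61 for PCOS in liver, and from 14 and 40 to 20 and 27 for PCOS in WAT. With the mouse as a replicate block, 28, 24 and 23 members were called between tissues and 0 in each of the 6 differences between tissues. The cause was not tested for any of these changes. Members with few reads, such as Acot1 in WAT, are limited by depth.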
